A study of Mus musculus with 2 samples.

Results

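The 10 genes described here encode subunits of the transcription factor NF-kB and the proteins that restrain or tune it: Nfkbia, Nfkbiz, Bcl3, Tnfaip3, Tnip1, Birc3, Traf1, Nfkb1, Nfkb2 and Relb. They were chosen by symbol among the 31053 genes counted in both libraries, and all 10 were found in both. The libraries come from subcutaneous tumours that MC38 cells, an established mouse colon carcinoma line, formed in mice. The 2 groups are a control group and a UBD overexpression group, with 1 single-cell 3' library each. UBD (also FAT10) is a small ubiquitin-like protein that marks proteins for the proteasome, and the series title places it in immune evasion and in resistance to PD-1 blockade. The sources used here do not give the strain, sex and age of the mice, the number of tumours behind each library, the vector or whether the modified cells are 1 clone. Tumours were minced, digested and freed of red cells, and no sort by cell type is described. With 1 library per group there is no replicate check of any difference, so no test was run and each value describes these libraries.

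NF-kB dimers are held in the cytoplasm by inhibitor proteins until receptors for TNF, IL-1 or microbial products activate a kinase that has the inhibitor degraded. Many inhibitors are themselves NF-kB targets, so their transcripts are made when the pathway is on and their proteins then shut it off. A slower, alternative branch runs through receptors such as CD40, processes the Nfkb2 product to p52 and pairs it with RelB, and is well known in maturing dendritic cells.

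The promoters of the genes are where NF-kB acts back on its own pathway, so windows of 250 bases before to 50 bases after each annotated start were searched on both strands for the kappaB consensus, the 10-letter NF-kB motif. RefSeq windows (GRCm38.p6) were matched for 7 of the 10 genes, and those of Nfkbiz, Relb and Nfkb1 were not analysed here. A match was present for 5 of the 7, which are Nfkbia, Tnfaip3, Nfkb2, Tnip1 and Bcl3, against 9.55% of all 27025 genes with such windows. Counted by window, since some genes have several starts, 7 of 10 windows held a match against 8.46% of 32851. The matched stretches, except 2 further ones of Nfkb2, are shown as 30 bases each on the strand of the gene, 5′ to 3′, with the motif letters in capitals.
Nfkbia, chr12:55492657-55492686, minus strand: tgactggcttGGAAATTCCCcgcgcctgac
Tnfaip3, chr10:19015403-19015432, minus strand: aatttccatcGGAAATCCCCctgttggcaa
Tnfaip3, chr10:19015516-19015545, minus strand: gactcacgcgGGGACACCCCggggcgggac
Nfkb2, chr19:46304688-46304717, plus strand: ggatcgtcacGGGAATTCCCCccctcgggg
Nfkb2, chr19:46305695-46305724, plus strand: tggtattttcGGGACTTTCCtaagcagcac
Tnip1, chr11:54962978-54963007, minus strand: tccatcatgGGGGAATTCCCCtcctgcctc
Bcl3, chr7:19822734-19822763, minus strand: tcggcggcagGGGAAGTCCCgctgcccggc
Distances are from the RefSeq starts. The Nfkbia match ends 19 bases before the start. The Tnip1 run, 12 letters long because several matches overlap, ends 46 bases before its start. The second Nfkb2 stretch lies after 1 annotated start of the gene and before another. The first bases after the Tnip1 start, and after the former of these Nfkb2 starts, were not found in the genes' transcripts of a second annotation, GENCODE. The nearer of the Tnfaip3 matches ends 2 bases before the start. The Bcl3 match lies after the start. Matches share letters with their reverse complements, so a stretch can match on both strands. A match describes letters and is not a measured binding site. No match was found in the windows of Birc3 and Traf1.

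All 10 genes are protein-coding, at these positions on GRCm38, the assembly that the mm10 build of the files also names. Nfkbia (ENSMUSG00000021025) lies on chromosome 12, 55489410 to 55492647, Nfkbiz (ENSMUSG00000035356) on chromosome 16, 55811375 to 55838899, and Bcl3 (ENSMUSG00000053175) on chromosome 7, 19808462 to 19822770. Relb (ENSMUSG00000002983) lies on the same chromosome as Bcl3, at 19606217 to 19629438. Tnfaip3 (ENSMUSG00000019850) lies on chromosome 10, 19000910 to 19015657, and Tnip1 (ENSMUSG00000020400) on chromosome 11, 54910785 to 54962917. Birc3 (ENSMUSG00000032000) lies on chromosome 9, 7848699 to 7873186, next to its close paralog Birc2, and reads of the pair could be split by the counting. Traf1 (ENSMUSG00000026875) lies on chromosome 2, 34941750 to 34961772, Nfkb1 (ENSMUSG00000028163) on chromosome 3, 135584655 to 135691547, and Nfkb2 (ENSMUSG00000025225) on chromosome 19, 46304320 to 46312385. Nfkb2 is the one gene on the plus strand.

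After filters, 13823 control cells with 164694644 unique molecular identifiers (UMIs, 1 per captured transcript) and 13057 UBD cells with 190086511 UMIs were kept. Of the barcodes, 71 occur in both libraries, 0.477% of the control and 0.501% of the UBD barcodes. Cells were put in a class by UMIs of 1 marker gene, or of the pair Ccr7 and Fscn1, and a cell that met the minimum of more than 1 class was left out. The tumour class (Cdkn2a) held 4395 control and 7667 UBD cells, the macrophage class (C1qa) 1517 and 1757, the monocyte class (Ly6c2) 2129 and 172, the T class (Cd3e) 145 and 277, the mature dendritic class (Ccr7 with Fscn1) 70 and 56, and the endothelial class (Cdh5) 30 and 16. Every class expressed each gene of its own fixed marker list in both libraries, and the sum of 4 Y-linked genes was 1.20 and 0.542 CPM in the tumour class against 95.7 to 169 CPM in the host classes. CPM here is the UMIs of a gene in each 1000000 UMIs summed over the cells of a class. Ubd itself gave 42 control and 177 UBD UMIs in the tumour class, 0.363 and 1.16 CPM, and a 3' library can miss a transgene without the mouse 3' end. Median depth was 22831 control and 17322 UBD UMIs per cell in the tumour class and 4054 and 5771 in the macrophage class. The 95% intervals in parentheses reflect counting error alone, since neither animals nor libraries were repeated. A lower CPM can come from fewer transcripts per cell or from fewer cells that express the gene.

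Across the classes, the genes did not share 1 order. The mature dendritic class, migratory cells that present antigen, had the highest level of Relb, Nfkb1, Nfkb2, Birc3 and Traf1 in both libraries. For Birc3, at 87.6 CPM (59.1 to 125) and 66.3 CPM (35.3 to 113) from 30 and 13 UMIs, the interval overlapped that of the next class in both. The Nfkb2 interval did so in the UBD library. Relb, the alternative-branch subunit, was at 353 CPM (293 to 422) in control and 260.3 CPM (194 to 342) in UBD mature dendritic cells, against 31.8 and 23.3 CPM in the tumour class, the lowest of the 6. Its other 4 classes lay between 41.2 and 58.8 CPM in the control library and between 32.9 and 39.5 CPM in the UBD library. Of these 4, the neighbours in rank had overlapping intervals in both libraries. Traf1, an adaptor of TNF receptor family members, spanned the widest range in the control library, from 967 CPM in mature dendritic to 38.9 CPM in tumour cells, 24.9-fold. In order below the mature dendritic class came T cells (312 and 264 CPM), monocytes (248 and 144 CPM) and macrophages (121 and 102 CPM), each step separated by intervals that did not overlap in either library. Nfkb1, which encodes p105 and p50, was at 312 and 225 CPM in mature dendritic cells, and the other 5 classes ran from 112 to 171 CPM in the control library with overlapping neighbours. Nfkb2 in the mature dendritic class was at 149 CPM (111 to 196) and 122 CPM (78.5 to 182). The other 5 classes had Nfkb2 at 48.3 to 66.9 CPM in the control library.

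The inhibitors had no single leading class. Nfkbiz, which encodes the nuclear inhibitor-family protein IkB-zeta, was the one gene of the 10 with its highest level in the tumour class, 472 CPM (468 to 476) in control and 329 CPM (326 to 332) in UBD cells, and the macrophage class came next at 356 and 309 CPM. Tnfaip3, which encodes the ubiquitin-editing enzyme A20, was highest in T cells, at 312 CPM (267 to 363) and 230.1 CPM (199 to 264). The UBD interval overlapped that of mature dendritic cells (158 CPM, 107 to 225). In the tumour class Tnfaip3 was at 36.0 and 12.7 CPM, 11.5% and 5.50% of the T level. Bcl3, a nuclear member of the inhibitor family, was highest in monocytes at 79.6 and 47.4 CPM, and in the UBD library its interval there overlapped that of T cells. Nfkbia, which encodes IkB-alpha, the main cytoplasmic inhibitor, had different leaders in the libraries. In the control library endothelial cells led with 1862 CPM (1679 to 2059), followed by mature dendritic cells (1486 CPM) and monocytes (1434 CPM). In the UBD library mature dendritic cells led with 1469.7 CPM, monocytes and macrophages followed with 1293 and 1218 CPM, and the tumour class was lowest at 319 CPM. The Nfkbia intervals of mature dendritic cells and monocytes overlapped in both libraries, as did those of monocytes and macrophages in the UBD library. Tnip1 was highest in endothelial cells in the control library (122 CPM) and in mature dendritic cells in the UBD library (61.2 CPM), with intervals that overlapped those of the next class in both.

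**Figure D1:**
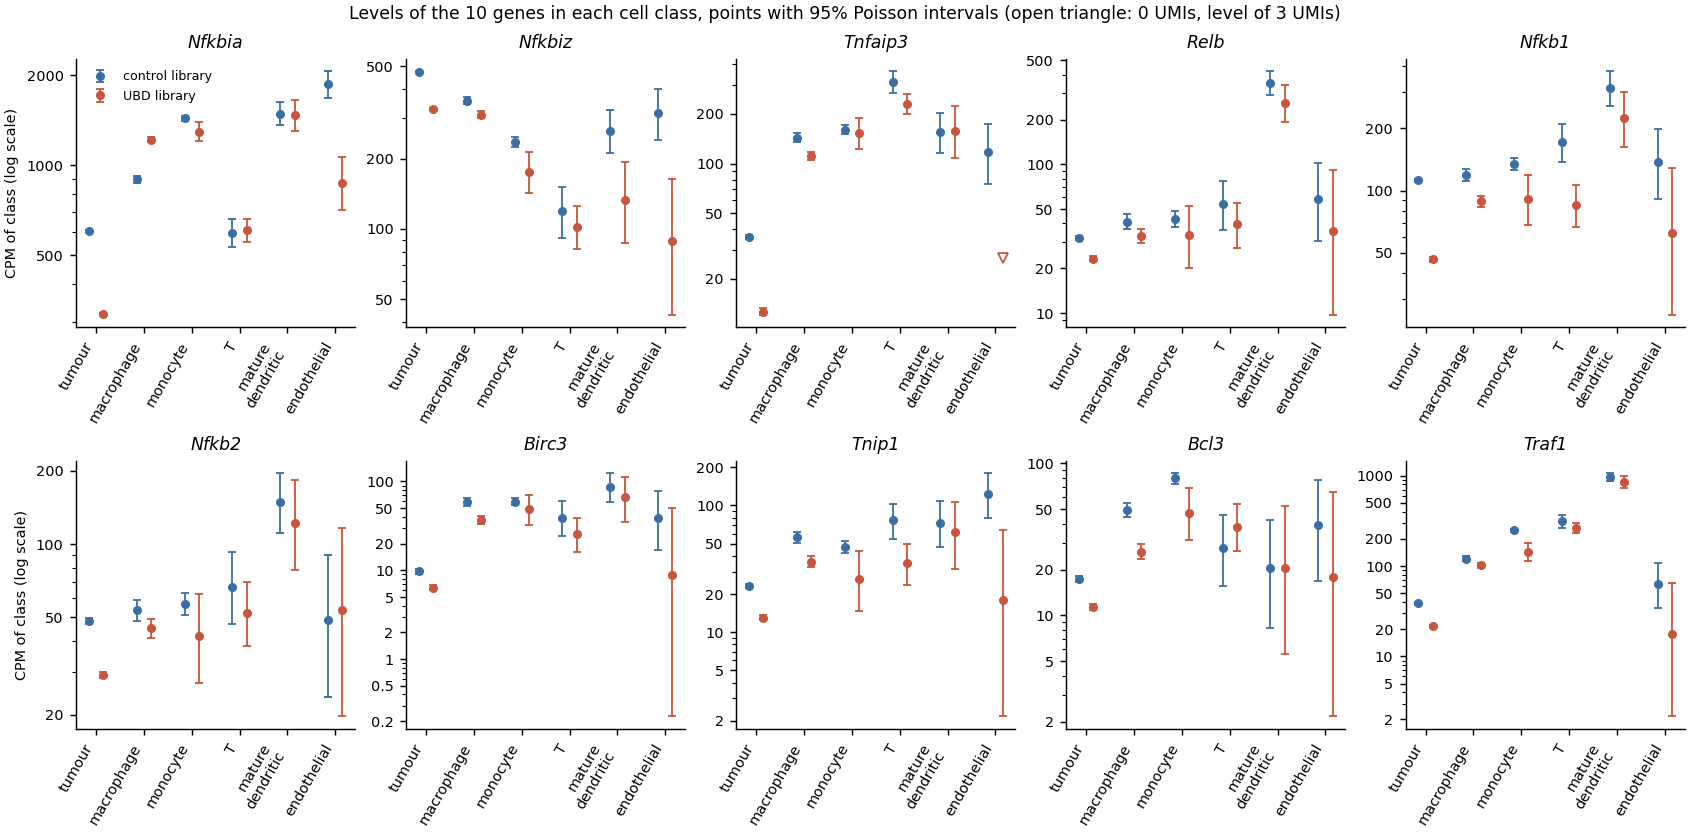
Level of each of the 10 genes (CPM of the class, log axis) in the 6 cell classes, with 1 point per library (blue control, red UBD) and 95% Poisson intervals for counting error; the open triangle is the level of 3 UMIs for Tnfaip3 in UBD endothelial cells, which had 0. Relb, Nfkb1, Nfkb2, Birc3 and Traf1 peak in the mature dendritic class in both libraries, and Nfkbiz in the tumour class. The mature dendritic interval overlaps that of the next class for Birc3 in both libraries and for Nfkb2 in the UBD library.

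In the tumour class all 10 genes had a lower level in the UBD library, and 8 of the 10 were at least 1.5-fold lower. The 8 are Nfkbia, Tnfaip3, Tnip1, Bcl3, Birc3, Traf1, Nfkb1 and Nfkb2. Of all 13769 genes with at least 50 summed UMIs in the class, 16.7% were at least 1.5-fold lower and 8.45% at least 1.5-fold higher, and 0 of the 10 were higher. The median log2 ratio (UBD over control) of the 10 was -0.78, against -0.02 over all genes compared. Leaving out cells that carry a UMI of the interferon-induced genes Ifit1, Ifit3 or Isg15 left 772 control and 6143 UBD cells. In these, 4 of the 10 were at least 1.5-fold lower (Tnfaip3, Tnip1, Nfkb1 and Nfkb2), and Bcl3 was no longer lower (log2 ratio 0.078). The median log2 ratio of the 10 was then -0.50, against 0.02 over all genes compared. The share of all genes past 1.5-fold was not computed for these cells.

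Among the inhibitors that bind NF-kB, Nfkbia went from 602 CPM (598 to 607) in the control library to 319 CPM (316 to 322) in the UBD library, a 1.89-fold lower level (1.86 to 1.91). Nfkbiz was at 472 and 329 CPM, 1.43-fold lower (1.42 to 1.45), which is short of the 1.5-fold limit. Bcl3 was at 17.3 CPM (16.6 to 18.1) and 11.4 CPM (10.9 to 11.9), 1.52-fold lower (1.43 to 1.62). None of the 3 pairs of intervals overlapped. The A20 pair followed. Tnfaip3 was at 36.0 CPM (34.9 to 37.1) and 12.7 CPM (12.1 to 13.2), a 2.84-fold lower level (2.69 to 3.004) and the largest fold of the 10. Tnip1, which encodes the A20-binding protein ABIN1, was at 23.1 CPM (22.3 to 24.0) and 13.02 CPM (12.5 to 13.6), 1.78-fold lower (1.68 to 1.88).

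Of the receptor-proximal genes, Traf1 was at 38.9 CPM (37.7 to 40.0) in control and 21.5 CPM (20.7 to 22.2) in UBD tumour cells, 1.81-fold lower (1.73 to 1.89). Birc3, which encodes the ubiquitin ligase cIAP2, was at 9.73 CPM (9.17 to 10.3) and 6.33 CPM (5.94 to 6.74), 1.54-fold lower (1.41 to 1.68), with an interval that reaches below 1.5. These are low levels, from 1126 and 969 Birc3 UMIs. The subunits differed among themselves more than the adaptors did. Nfkb1 went from 112 CPM (110.4 to 114) to 46.5 CPM (45.4 to 47.6), 2.42-fold lower (2.35 to 2.49). Nfkb2 was at 48.3 CPM (47.0 to 49.5) and 29.1 CPM (28.2 to 29.9), 1.66-fold lower (1.60 to 1.73), and Relb at 31.8 CPM (30.8 to 32.9) and 23.3 CPM (22.5 to 24.0), 1.37-fold lower (1.31 to 1.43).

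The remaining subunits, Rela and Rel, were set beside them from a list of the pathway. Rel, which encodes c-Rel, was at 42.1 and 17.5 CPM in the tumour class, 2.40-fold lower in the UBD library (2.29 to 2.52). Rela, which encodes p65, was at 38.9 and 28.2 CPM, 1.38-fold lower (1.32 to 1.44), close to the fold of Relb. The ratio of Relb to Rela UMIs was accordingly alike in the libraries, 0.818 (0.783 to 0.855) in control and 0.825 (0.789 to 0.863) in UBD tumour cells. The ratio of Nfkb2 to Nfkb1 UMIs was 0.430 (0.416 to 0.443) and 0.625 (0.602 to 0.649), and that of Relb to Rel was 0.757 (0.725 to 0.790) and 1.33 (1.26 to 1.40). Thus the p105 and c-Rel transcripts differed more between the libraries than the other 3 subunit transcripts. The ratios compare each pair between libraries and do not rank the genes by level.

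**Figure D2:**
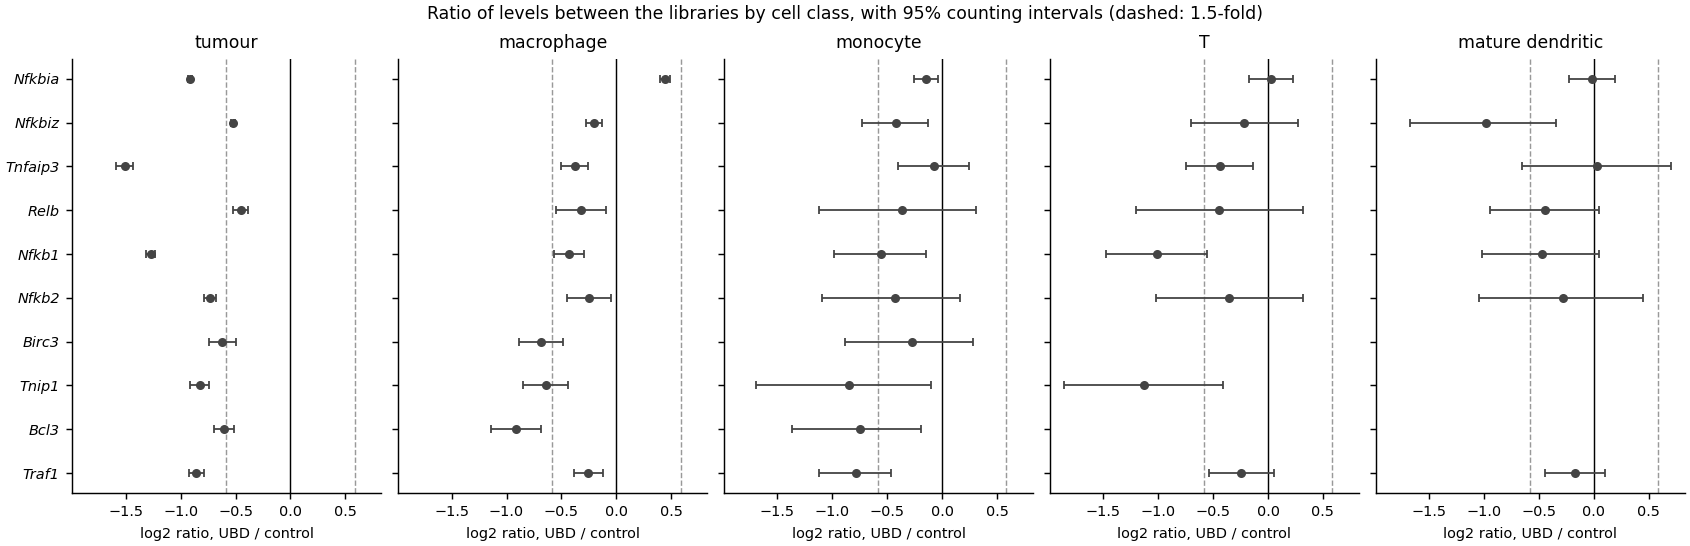
Log2 ratio of the UBD over the control level for each gene (points, with 95% counting intervals) in the 5 classes with at least 50 cells in each library; dashed lines mark 1.5-fold, and genes under 50 summed UMIs are left blank. All 10 points lie left of 0 in the tumour class, and Nfkbia in the macrophage class lies right of 0 at a log2 ratio of 0.44.

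Other transcripts moved with these differences in the tumour class. The 10 type I interferon genes of a fixed list all had UBD levels at least 1.5-fold below control, their summed level being 891 CPM in control and 115 CPM in UBD tumour cells. The 14 dissociation stress genes summed to 13678 and 10377 CPM, and 6 of them were at least 1.5-fold lower. With the cells above the median stress share left out, 5 of the 10 genes (Nfkbia, Tnfaip3, Tnip1, Nfkb1 and Nfkb2) were at least 1.5-fold lower. The median log2 ratio of the 10 was then -0.59, against 0.03 over all genes compared. Mitochondrially encoded genes took 3.55% and 3.44% of UMIs, and Gm42418, a gene that overlaps ribosomal RNA, was at 2610.4 and 1001 CPM. Markers of other cell types were also present in the tumour class, and their part in the differences was not tested. Of the macrophage list, 7 of 7 markers were detected and summed to 82.1 and 109.8 CPM, against 22959 and 22441 CPM in the macrophage class, and the T marker list to 3.79 and 2.31 CPM with Cd3e at 0 by the class rule. Natural killer cell markers, 3 of 3 detected, summed to 10.4 and 1.59 CPM. The monocyte list, 6 of 6 detected, summed to 616 and 800.1 CPM, of which the matrix gene Fn1 gave 415 and 683 CPM, while its members Plac8 and Ly6c2 were at 110.3 and 22.6 CPM and at 4.85 and 0.248 CPM. The fibroblast list, 4 of 4, summed to 506 and 337 CPM. The osteoclast-type markers Acp5, Ctsk and Mmp9 summed to 34.1 and 134 CPM. The lowest tumour level of the 10 genes relative to a host class was that of Traf1, 4.02% and 2.50% of its mature dendritic level. C1qa, which marks the macrophage class, was at 11.96 and 10.998 CPM in tumour cells and at 5379 and 5514 CPM in macrophages.

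A smaller share of UBD than of control tumour cells had a UMI of each gene. When each cell was thinned to 1000 UMIs, 41.9% of control tumour cells (40.5 to 43.4) and 22.5% of UBD tumour cells (21.6 to 23.5) had an Nfkbia UMI, against 93.8% and 77.0% without thinning. For Nfkbiz the thinned shares were 38.2% (36.8 to 39.7) and 25.3% (24.4 to 26.3), and for Nfkb1 11.7% (10.8 to 12.7) and 4.29% (3.85 to 4.77). The Tnfaip3 share was 4.73% (4.12 to 5.40) in control and 1.02% (0.805 to 1.27) in UBD tumour cells. None of these pairs of intervals overlapped, and the shares of the other 6 genes were also lower in the UBD library. At 2000 UMIs per cell the mean Nfkbia count was 1.46 in control and 0.605 in UBD tumour cells, the median was 1 and 0, and the maximum 27 and 12. The tenth of cells with the most Nfkbia UMIs carried 41.9% of them in control and 52.8% in UBD cells. Traf1 was the most uneven of the low genes in the control library, with a variance of 1.89 times its mean and up to 13 UMIs in a cell, against 1.12 times and up to 4 UMIs in the UBD library.

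Of the other 9 genes, Nfkbiz, Tnfaip3, Relb, Nfkb1 and Traf1 were higher, beyond counting error in both libraries, in tumour cells with an Nfkbia UMI than in those without. In cells thinned to 2000 UMIs, the Tnfaip3 level of control tumour cells was 68.5 CPM where an Nfkbia UMI was present and 23.9 CPM where none was, a 2.87-fold difference (2.25 to 3.70). In UBD tumour cells the values were 26.5 and 5.39 CPM, 4.92-fold (3.57 to 6.86). Nfkbiz differed in the same way by 1.97-fold (1.85 to 2.10) in control and 1.78-fold (1.68 to 1.88) in UBD cells. Nfkb1 was 1.76-fold (1.55 to 2.01) and 1.59-fold (1.36 to 1.86) higher in cells with an Nfkbia UMI, and Traf1 2.36-fold (1.88 to 3.0) and 1.54-fold (1.21 to 1.95). For Tnip1 the folds were 1.05 (0.790 to 1.41) and 1.19 (0.882 to 1.60), with intervals that include 1, as did those of Nfkb2 in control (1.13) and of Birc3 (1.46) and Bcl3 (1.24) in UBD cells, and for Rela the folds were 1.08 (0.872 to 1.33) and 1.20 (0.982 to 1.46). The reference genes Hspa8 and Gapdh gave 1.04 (1.005 to 1.07) and 0.844 (0.826 to 0.862) in control tumour cells. In UBD tumour cells they gave 1.11 (1.09 to 1.14) and 1.07 (1.05 to 1.09). None of these intervals includes 1, so small folds beyond counting error also occur for the reference genes. Hspa8 is also on the dissociation stress list. In macrophages the Tnfaip3 folds were 1.62 (1.27 to 2.10) and 2.23 (1.59 to 3.20). Relb, Nfkb2, Birc3, Tnip1 and Bcl3 had intervals that include 1 in both macrophage libraries. Cells with and without an Nfkbia UMI are cells of 1 library, so these folds describe that library.

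**Figure D3:**
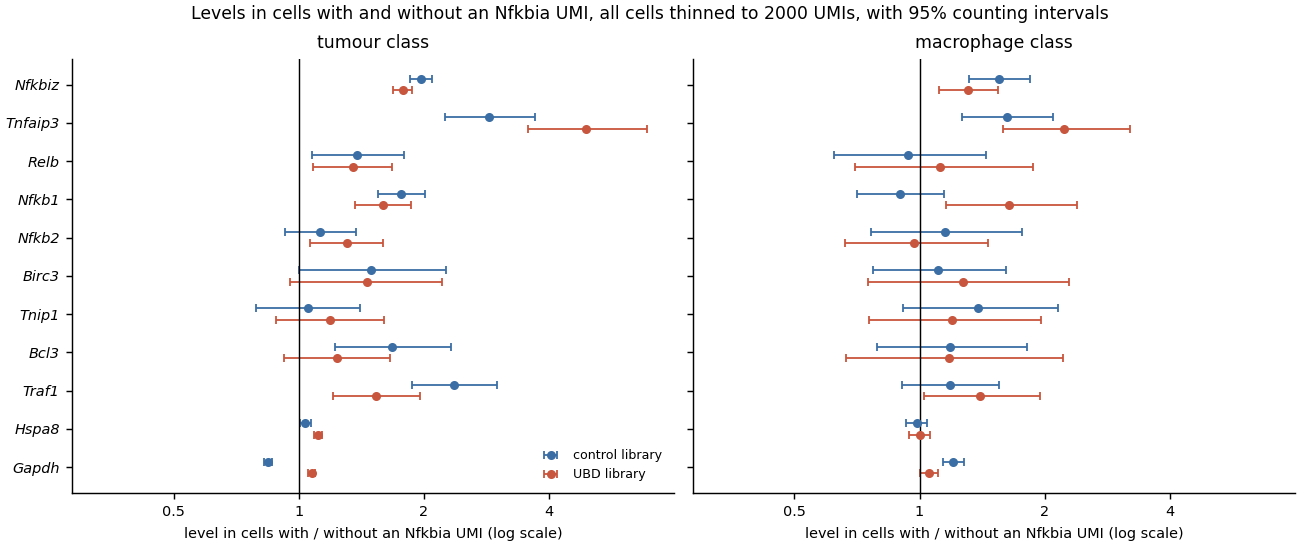
Level of each gene in cells with an Nfkbia UMI divided by its level in cells without one (log axis, points with 95% counting intervals), in the tumour and macrophage classes of each library after thinning each cell to 2000 UMIs. Tnfaip3 has the largest fold in tumour cells of both libraries, 2.87 in control and 4.92 in UBD. The reference genes Hspa8 and Gapdh lie between 0.844 and 1.11 in tumour cells, with intervals that do not include 1.

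The direction was the same in tumour cells grouped by other transcripts, and the size was not. Groups were set by at least 2 UMIs of Krt18 or Krt8 (epithelial keratins), H19 (an imprinted noncoding RNA), Serpinb2, Il11 or Crabp1, or Ifit1, Ifit3 or Isg15, and a cell may be in several groups. The shares differed between the libraries: interferon-group cells were 67.7% of control and 9.98% of UBD tumour cells, H19 cells 5.19% and 20.4%, and cells of none of the groups 17.8% and 57.5%. Marker UMIs were counted without thinning, so these shares also depend on depth, with medians of 22831 control and 17322 UBD UMIs per cell. In each of the 5 groups, all 10 genes had a lower level in the UBD library, and the median log2 ratio ran from -0.83 in H19 cells to -0.43 in Serpinb2, Il11 or Crabp1 cells. The ratio interval included 1 for Bcl3 and Traf1 in keratin cells and for Relb in interferon cells. It also did for Birc3 and Bcl3 in cells of none of the groups. At least 1.5-fold lower were 7 of 10 in H19 cells, 5 in cells of none of the groups, 4 in Serpinb2, Il11 or Crabp1 cells and 3 each in keratin and interferon cells. The share of all genes tested that were as much lower was 13.8% in H19 cells, 11.4% in cells of none of the groups, 11.6% in Serpinb2, Il11 or Crabp1 cells, 8.58% in keratin cells and 14.9% in interferon cells. Nfkb1 passed 1.5-fold in every group, from 1.71-fold in Serpinb2, Il11 or Crabp1 cells (110.02 and 64.2 CPM) to 2.71-fold in H19 cells (123 and 45.3 CPM). Tnfaip3 was 1.38-fold lower in Serpinb2, Il11 or Crabp1 cells (34.1 and 24.8 CPM) and 3.92-fold lower in H19 cells (46.2 and 11.8 CPM). Bcl3 was at 10.4 and 9.98 CPM in keratin cells, 1.04-fold lower with a ratio interval that includes 1, and at 27.6 and 12.0 CPM in H19 cells. Traf1 was at 32.8 and 30.9 CPM in keratin cells and at 41.8 and 19.4 CPM in interferon cells, 1.06-fold and 2.15-fold lower.

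**Figure D4:**
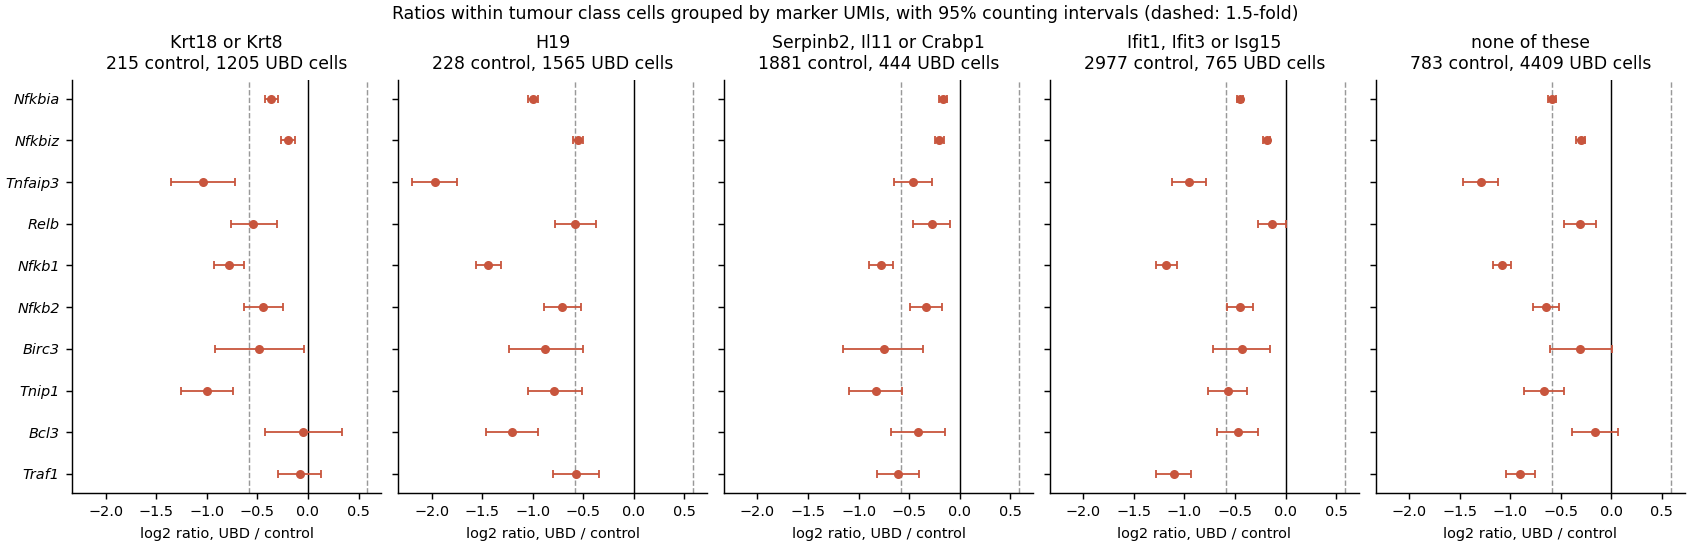
Log2 ratio of the UBD over the control level of each gene (points, 95% counting intervals) within tumour class cells that carry at least 2 UMIs of the named markers, with the cell numbers above each panel and dashed lines at 1.5-fold. All points lie left of 0, some with intervals that cross it. Nfkb1 lies beyond 1.5-fold in each of the 5 panels, and the H19 panel has the lowest median, -0.83.

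The other genes of the pathway, in lists fixed by role, were compared in the tumour class. Of 11 other inhibitors, 4 were at least 1.5-fold lower (Nfkbib, Nfkbie, Tnip3 and Zc3h12a) and 0 higher, with a median log2 ratio of -0.42. Nfkbib, which encodes IkB-beta, was at 42.9 and 27.8 CPM, 1.54-fold lower, while Otud7b, a deubiquitinase, was at 28.6 and 32.9 CPM and the A20 adaptor Tax1bp1 at 119.8 and 112 CPM. The signalling core differed least: of 21 kinases and adaptors with a ratio, 2 were lower (Map3k14 and Ripk2) and 1 higher (Irak4), with a median of -0.21. The kinase Irak1 was at 49.7 and 51.4 CPM, the kinase-binding protein Tab2 at 36.1 and 39.8 CPM and the adaptor Bcl10 at 106 and 103 CPM. Of 12 receptors, 6 were lower and 1 was higher (Il1rap), with a median of -0.42. Tnfrsf1a, the main TNF receptor, was at 52.8 and 52.5 CPM, and Tnfrsf12a, the TWEAK receptor, at 408 and 352 CPM. Tnfrsf9, the receptor 4-1BB, was at 48.2 and 28.0 CPM, 1.72-fold lower. Of 7 ligands with a ratio, 4 were lower and Tnfsf11 (RANKL) was higher, at 4.53 and 7.31 CPM. The cytokine Il1b was at 14.7 and 5.40 CPM.

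Among 20 targets, 15 were at least 1.5-fold lower and 1 higher (Plau), with a median log2 ratio of -1.63 against -0.02 over all genes. The chemokine Ccl2, which draws monocytes, was at 1497 and 306 CPM, 4.89-fold lower (4.84 to 4.94). Cxcl1, which draws neutrophils, was at 960.3 and 273 CPM, 3.52-fold lower (3.48 to 3.56). The stress-survival gene Ier3 was at 1281 and 610.1 CPM, 2.10-fold lower (2.08 to 2.12). The 10 genes thus lay between the signalling core and the targets by median, a description of these lists, which were written with earlier results of the same libraries known.

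**Figure D5:**
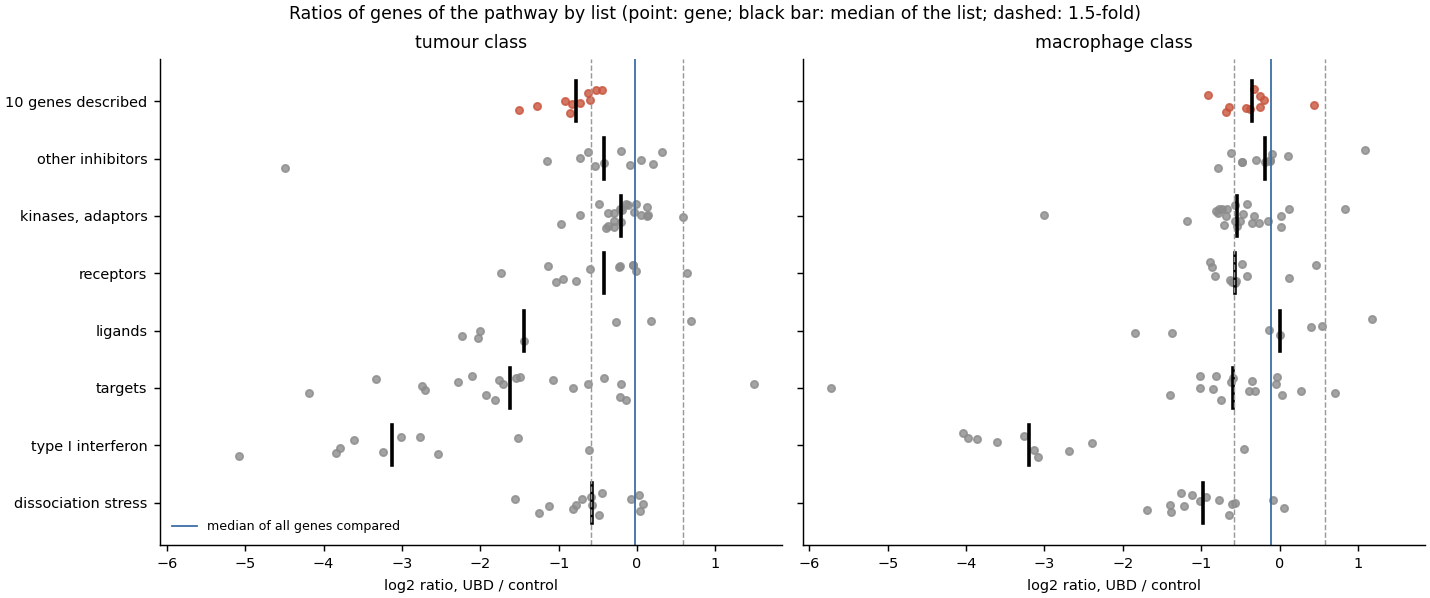
Log2 ratio (UBD over control) of each gene with a ratio, by list, in the tumour class (left) and the macrophage class (right), with the median of each list as a black bar, the median of all genes compared as a blue line and 1.5-fold as dashed lines; vertical scatter within a list is arbitrary. In the tumour class the medians are -0.78 for the 10 genes, -0.21 for kinases and adaptors and -1.63 for targets.

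In the macrophage class, 3 of the 10 genes (Birc3, Tnip1 and Bcl3) had UBD levels at least 1.5-fold below control and 0 were that much higher, where 18.9% of 9735 genes were lower and 7.08% higher. The median of the 10 was -0.35, with the median over all genes at -0.11, and 1 gene (Bcl3) was past 1.5-fold when the ratios were scaled to that median. Nfkbia went the other way from the tumour class, from 896 CPM (874 to 918) in control to 1218 CPM (1197 to 1239) in UBD macrophages, a ratio of 1.36 (1.32 to 1.40). Its ratio without the cells above the median stress share was past 1.5-fold (log2 ratio 0.65). The thinned share of macrophages with an Nfkbia UMI was 51.7% (49.1 to 54.3) and 59.6% (57.2 to 61.9), and 82.9% and 90.4% without thinning.

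Bcl3 was at 49.5 CPM (44.5 to 55.0) and 26.3 CPM (23.3 to 29.5) in macrophages, 1.88-fold lower (1.61 to 2.21). Birc3 was at 58.9 and 36.6 CPM, 1.61-fold lower (1.40 to 1.85), and Tnip1 at 56.2 and 36.0 CPM, 1.56-fold lower (1.35 to 1.80), the intervals of both reaching below 1.5. Nfkb1 was at 119.6 and 88.6 CPM and Tnfaip3 at 144 and 111 CPM, 1.35-fold and 1.30-fold lower. Relb (41.2 and 32.9 CPM), Nfkb2 (53.6 and 45.1 CPM), Traf1 (121 and 102 CPM) and Nfkbiz (356 and 309 CPM) were 1.15-fold to 1.25-fold lower. Of the 20 targets, 17 had a ratio, 9 were lower and Bcl2a1b was higher (408 and 664 CPM), while Cxcl2, the target with the most UMIs, was at 3181 and 3246 CPM. Tnf, the cytokine that feeds the pathway, was at 165 and 46.0 CPM, 3.60-fold lower (3.24 to 4.001), and Il1b at 998 and 1314 CPM, 1.32-fold higher (1.28 to 1.36). Of 23 kinases and adaptors, 9 were lower, with a median of -0.54, and Malt1 was higher (68.2 and 121 CPM). In this class 11 of 14 stress genes and 9 of 10 interferon genes were lower, with summed levels of 12692 and 8293 CPM and of 2352 and 434 CPM, Gm42418 was at 11669 and 2816 CPM, and the osteoclast-type markers summed to 324 and 462 CPM. Without cells that carry an osteoclast-type marker UMI, 2 of the 10 genes were past 1.5-fold and Nfkbia had a log2 ratio of 0.43, against 0.44 with them. With totals that leave out mitochondrial, ribosomal and rRNA-overlapping genes, 2 of the 10 were past 1.5-fold. The monocyte list summed to 625 and 934 CPM in macrophages, with Fn1 at 732 CPM in the UBD library. Its members Plac8 and Ly6c2 were at 358 and 85.8 CPM and at 39.1 and 3.22 CPM. Neutrophil markers summed to 61.2 and 20.9 CPM. The part of these markers in the macrophage values was not tested.

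The monocyte class had 2129 control but 172 UBD cells, and 3 of the 10 genes were at least 1.5-fold lower (Tnip1, Bcl3 and Traf1) and 0 higher, with 23.9% of 7767 genes lower and 15.6% higher. The share of the 10 is thus near that of all genes. Traf1 was at 248 CPM (236 to 260.0) and 144 CPM (114 to 179), 1.72-fold lower (1.38 to 2.18). Bcl3 was at 79.6 CPM (73.0 to 86.7) and 47.4 CPM (31.2 to 68.9), and Tnip1 at 47.3 CPM (42.2 to 52.8) and 26.3 CPM (14.7 to 43.4), from 27 and 15 UBD UMIs. For all 3 the ratio interval reached below 1.5-fold. Nfkbia was at 1434 and 1293 CPM and Tnfaip3 at 161 and 153 CPM, with ratios of 0.902 (0.836 to 0.972) and 0.951 (0.755 to 1.18). The UBD cells of this class carried T markers (6 of 7 detected in each library, summed 152 and 1021 CPM, Cd3e at 0 by the class rule) and osteoclast-type markers (3 of 3, summed 55.9 and 1485 CPM). In this class 12 of 14 stress genes and 10 of 10 interferon genes were also lower, with summed levels of 10954 and 6965 CPM and of 3634 and 558 CPM. Gm42418 was at 11002 and 3668 CPM, and the macrophage list, 7 of 7 detected, summed to 2292 and 1274 CPM. Without cells with T or osteoclast-type marker UMIs 1820 and 88 cells stayed, 4 genes were past 1.5-fold and the Traf1 log2 ratio was -1.55 in place of -0.78. The count was 5 with lower marker minima and 1 where cells that also reach the Cdkn2a minimum were kept.

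In the T class, 8 of the 10 genes had at least 50 summed UMIs, and 2 of the 8 were at least 1.5-fold lower (Nfkb1 and Tnip1) and 0 higher, with 11.7% of 3410 genes lower and 10.4% higher. Nfkb1 was at 171 CPM (138 to 210) and 84.8 CPM (66.5 to 107), 2.02-fold lower (1.47 to 2.78), from 92 and 73 UMIs. Tnip1 was at 76.2 CPM (54.7 to 103) and 34.9 CPM (23.5 to 49.8), 2.19-fold lower (1.33 to 3.62). Tnfaip3, which restrains T cell receptor signalling as well, was at 312 and 230.1 CPM, 1.36-fold lower (1.10 to 1.67). Nfkbia was at 595 and 605 CPM, a ratio of 1.02 (0.884 to 1.17), and Traf1 at 312 and 264 CPM, a ratio of 0.845 (0.689 to 1.04). Rel was at 275 and 151 CPM, 1.82-fold lower (1.43 to 2.32). The number of genes with a ratio changed with the setting. The count of 2 of 8 became 5 of 8 when cells were weighted equally. It was 5 of 10 when cells that also reach the Cdkn2a minimum were kept. With lower marker minima it was 4 of 7, and 1 of 5 when cells were thinned to 2000 UMIs. Of the interferon genes 6 of 6 with a ratio and of the stress genes 7 of 12 were lower in this class, with summed levels of 1154 and 310.2 CPM and of 6737 and 5633 CPM, and Gm42418 was at 12833 and 5029 CPM. Natural killer markers summed to 697 and 166 CPM, with Ncr1 at 0 in the UBD library. Their part in the values was not tested.

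In the mature dendritic class, 7 of the 10 genes had a ratio and 1 was at least 1.5-fold lower (Nfkbiz) and 0 higher, with 18.0% of 1354 genes lower and 10.7% higher. Nfkbiz was at 263 CPM (211 to 323) and 133 CPM (86.7 to 194), from 90 and 26 UMIs, and 8 of 70 and 7 of 56 cells had an Nfkbiz UMI after thinning to 1000. With at most 10% mitochondrial UMIs its log2 ratio was -0.07 in place of -0.99, and no gene was past 1.5-fold. Relb and Nfkb1, highest in this class, had ratios of 0.737 (0.520 to 1.03) and 0.719 (0.494 to 1.03), and Traf1 and Nfkbia 0.887 (0.732 to 1.07) and 0.989 (0.853 to 1.14), so no difference was detectable for them at this depth. The ratio of Relb to Rela UMIs was 2.95 (2.06 to 4.31) in control and 6.38 (3.003 to 15.6) in UBD mature dendritic cells. The UBD value rests on 8 Rela UMIs. Both were above the 0.818 and 0.825 of tumour cells and the 0.664 and 0.699 of macrophages. T cells had 1.32 (0.731 to 2.41) and 1.36 (0.788 to 2.38), and monocytes 0.632 and 1.27. Endothelial cells had 1.33 (0.516 to 3.58) and 0.571. The control intervals of T and endothelial cells overlapped that of mature dendritic cells. Thinned to 1000 UMIs, 37.1% (25.9 to 49.5) and 17.9% (8.91 to 30.4) of mature dendritic cells had a Relb UMI, against 3.19% and 2.17% of tumour cells, and 78.6% and 48.2% of mature dendritic cells did without thinning. A Traf1 UMI was seen in 61.4% (49.0 to 72.8) and 73.2% (59.7 to 84.2). Of the interferon genes 3 of 3 with a ratio and of the stress genes 6 of 13 were lower, with summed levels of 1486 and 347 CPM and of 9187 and 6553 CPM. The UBD cells of this class carried osteoclast-type markers, 3 of 3 in both libraries with sums of 38.0 and 3429 CPM, and the natural killer list, 2 of 3 detected in control and 0 of 3 in UBD, summed to 464 and 0 CPM. The part of these markers in the values was not tested, since leaving the osteoclast-type cells out leaves 44 UBD cells.

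The endothelial class, with 30 and 16 cells, gives levels only. Nfkbia was at 1862 CPM (1679 to 2059) in control and 874 CPM (709 to 1065) in UBD endothelial cells, and Tnip1 at 122 CPM (79.3 to 181) and 17.8 CPM (2.16 to 64.4). Tnfaip3 was at 118 CPM from 24 UMIs in the control library and at 0 of 112176 UMIs in the UBD library, where 3 UMIs, the one-sided limit that a count of 0 allows, would be 26.7 CPM. The osteoclast-type markers summed to 779 and 5019 CPM in this class. The stress genes summed to 18437 and 8825 CPM and the interferon genes to 3190 and 588 CPM, with Gm42418 at 14277 and 6285 CPM. The part of these differences in the endothelial levels was not tested.

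Cells outside the classes held part of the UMIs of each gene. Of all Nfkbia UMIs, 58.9% (control) and 56.8% (UBD) lay in the tumour class and 5.40% and 15.4% in the macrophage class, while 13.6% and 22.3% lay in cells of no class and 12.9% and 3.49% in cells that met several minima. Over all kept cells Nfkbia was at 718 and 452 CPM and Tnfaip3 at 63.0 and 26.4 CPM, 1.59-fold and 2.38-fold lower. These totals mix the shares of the classes with the levels inside them. In cells of no class, Nfkbiz was at 574 and 173 CPM, 3.33-fold lower (3.19 to 3.47), while Tnip1 was at 50.4 and 52.3 CPM, a ratio of 1.04 (0.939 to 1.15). Cells of no class carried the osteoclast-type markers at sums of 2201 and 12532 CPM. Their neutrophil markers summed to 1276 and 151 CPM and their natural killer markers to 905 and 70.3 CPM. The stress genes summed to 18728 and 8658 CPM and the interferon genes to 1694 and 260 CPM, with Gm42418 at 16448 and 2451 CPM. The part of these differences in the values was not tested.

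Over the 11 points of class and library with at least 30 cells, the subunit genes followed each other. On the log2(CPM + 1) scale, Pearson's r was 0.962 between Relb and Nfkb2, 0.939 between Nfkb1 and Nfkb2 and 0.883 between Relb and Nfkb1. The mature dendritic points stood apart on this scale. Relb was at 8.47 in control and 8.03 in UBD mature dendritic cells, and its next point was 5.90. Nfkb2 was at 7.23 and 6.95 there, and its next point was 6.09. The r values without this small class were not computed. Nfkbiz, highest in tumour cells, had a negative r with each of the other 9. Bcl3 and Relb, highest in different classes, had an r of -0.169. There were 11243 genes with enough UMIs, the 10 included. Outside the 10, those most like the mean of the 10 were Gadd45b (0.977), Tapbp (0.969), B2m (0.965), Cd274 (0.963), Gdap10 (0.957) and Sp140 (0.943). Gadd45b encodes a stress-response protein and is itself on the target list, B2m and Tapbp serve antigen presentation, and Cd274 encodes PD-L1. Taken alone, Nfkbia was most like Mvp (0.944), Csf2rb2 (0.918) and Tbc1d9 (0.915), Birc3 most like Tapbp (0.986), Rhog (0.977) and Csf2rb (0.971), and Nfkb2, after Relb, most like Pcgf5 (0.962) and Psme2 (0.945). The points share 2 libraries and their depths, so these correlations only describe them.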

How the data were processed

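The deposited values are UMI counts per gene and barcode, not normalized, in 1 matrix per library of 31053 genes from a 3' version 3 chemistry, per the labels' protocols. The submitters' processing notes name Cell Ranger and STAR as tools and mm10 as the genome build. Software version 3.1.0 stands in the matrices, per the file headers. How barcodes were called cells is not given in the sources used here.

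Of 14890 control and 14158 UBD barcodes, 14353 and 13619 passed filters of 200 genes and 500 UMIs as minima and 20% mitochondrial UMIs as the maximum. Scrublet, run in scanpy 1.11.5 at an expected rate of 0.1, marked 530 (3.69%) and 562 (4.13%) as doublets, which were removed. A cell joined a class with at least 5 Cdkn2a, 3 C1qa, 2 Ly6c2, 1 Cd3e, 1 Ccr7 with 2 Fscn1, or 2 Cdh5 UMIs, and the minimum of no other class.

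Counts were summed per class and library. Intervals are exact: Poisson for levels in CPM, binomial given the summed count for ratios, and Clopper-Pearson for shares. A ratio needed 50 summed UMIs and 50 cells in each library, and genes past 1.5-fold were counted as lower or higher. Cells were thinned to 1000 UMIs for shares and 2000 for levels within cells, which left out 1 control and 3 UBD tumour cells, and 69 and 30 macrophages, at 1000. Calculations used Python 3.11.15, numpy 2.4.6, scipy 1.17.1 and pandas 2.3.3, and figures matplotlib 3.10.9. The counting of genes past 1.5-fold was tested on simulated data.

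All 10 genes are named, with the 3 genes of each pathway list that have the most UMIs in a class and the 6 most alike genes, or 3 for a single gene. Other pathway genes named because they were past 1.5-fold, and the tumour cells' marker groups, were chosen after their values were seen. The 10 genes and the lists were chosen with earlier results of these data known. Alternatives changed 1 choice at a time, and those that leave out cells with T or osteoclast-type marker UMIs were added after seeing the data.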

Additional observations from a re-analysis of the deposited data

How the results depend on the processing

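Each library is 1 sample, so the spread between tumours is not measured, and the mature dendritic and endothelial classes hold few cells. No paired analysis was possible because each group has 1 library. In the tumour class the count of 8 lower genes ran from 6 to 10 under the other alternatives, and was 4 without cells with Ifit1, Ifit3 or Isg15 and 5 without cells above the median stress share. Bcl3 there had a log2 ratio of 0.078 without the interferon-marked cells in place of -0.61, the one change of sign among 120 values in that class. Nfkbia ran from -1.27 (thinned to 2000 UMIs) to -0.37 (without the interferon-marked cells) and Traf1 from -1.44 (thinned) to -0.25 (without the high-stress cells).

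In macrophages the count of 3 lower genes was 1 when scaled to the median gene, and 1 gene was higher without the high-stress cells. In monocytes the count of 3 was 5 with lower marker minima, 1 with Cdkn2a cells kept and 5 without the interferon-marked cells. In T cells the count of 2 of 8 genes with a ratio was 4 of 7 with lower marker minima and 5 of 10 with Cdkn2a cells kept. It was 5 of 8 with cells weighted equally and 1 of 5 when thinned. In mature dendritic cells the count of 1 of 7 genes with a ratio was 5 of 10 with Cdkn2a cells kept. It was 0 of 7 with at most 10% mitochondrial UMIs, with cells weighted equally or without the high-stress cells. The cause of these changes was not tested. The share of all genes past 1.5-fold was not computed under the alternatives, so their counts have no background beside them. Higher marker minima, thinning to 2000 UMIs and leaving out cells with interferon or osteoclast-type marker UMIs were not run for mature dendritic cells, since fewer than 50 cells of a library were left.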
